A study of Mus musculus with 2 samples.

Results

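The genes described here are 8 that encode major histocompatibility complex (MHC) class II molecules and the proteins that load peptide onto them: H2-Aa, H2-Ab1, H2-Eb1, H2-DMb1, H2-DMb2, H2-Ob, Cd74 and Ifi30. They were taken by name from the gene column of the deposited table, where they had 10 of 9143 probes and made up 8 of its 7976 genes. All 8 were measured on both arrays, as were 5192 genes in all. The samples were IRF8 KO primary mouse cells positive for CD11b, set against wt cells of the same kind. IRF8, an interferon regulatory factor, is a DNA-binding protein known for steering how monocytes and dendritic cells develop, and CD11b is an integrin chain on the surface of myeloid cells. The cells of both genotypes were untreated, and the sources used here name no strain, age, tissue, number of animals or method of cell selection. Each of 2 two-colour arrays held Cy3-labelled IRF8 KO RNA and Cy5-labelled wt RNA, with no exchange of dyes, so dye and genotype cannot be told apart. The arrays are described as biological replicates, without saying whether they came from separate animals, so a p-value measures only the spread between these hybridisations.

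Class II molecules are pairs of an alpha and a beta chain that show peptides from engulfed material to CD4 T cells, and they are made mainly by dendritic cells, B cells and macrophages. The classical mouse molecules are I-A, from H2-Aa and H2-Ab1, and I-E, whose beta chain is H2-Eb1. The invariant chain, encoded by Cd74, fills the groove of a new molecule and guides it to the endosome, where cathepsin S (Ctss) cuts the chain down. The H2-DM molecule, whose beta chains are H2-DMb1 and H2-DMb2, then exchanges the remaining fragment for a peptide, and H2-DO, whose beta chain is H2-Ob, holds H2-DM back, mostly in B cells. Ifi30 encodes GILT, a lysosomal thiol reductase that opens disulfide bonds of antigens. Transcription of the chains and of Cd74 is known to depend on the coactivator Ciita, which binds a complex of RFX factors on an X box and NF-Y on a Y box in their promoters.

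The promoters of the chains are shown because the chains share these boxes, whereas Ifi30 had neither pattern in its window. RefSeq windows of build GRCm38.p6, from 250 bases before to 50 bases after the transcript start, were held for 6 of the 8 genes. The stretch starting 130 bases before the start is printed 5′ to 3′ on the gene's own strand. Capitals mark the Y box core CCAAT or its reverse complement ATTGG, and the pattern AACNNATGA, which lies in the X box and was chosen after the sequences had been seen.
H2-Aa (chr17:34287849-34287953, minus strand): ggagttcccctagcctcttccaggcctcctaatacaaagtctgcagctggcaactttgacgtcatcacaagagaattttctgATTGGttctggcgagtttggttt
H2-Eb1 (chr17:34305737-34305841, plus strand): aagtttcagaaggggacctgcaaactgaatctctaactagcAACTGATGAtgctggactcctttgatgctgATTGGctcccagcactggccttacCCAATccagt
H2-DMb1 (chr17:34153061-34153165, plus strand): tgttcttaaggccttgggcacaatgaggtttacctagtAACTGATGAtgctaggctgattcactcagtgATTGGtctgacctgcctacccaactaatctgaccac
H2-DMb2 (chr17:34145119-34145223, plus strand): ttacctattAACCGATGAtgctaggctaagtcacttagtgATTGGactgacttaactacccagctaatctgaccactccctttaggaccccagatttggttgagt
H2-Ob (chr17:34238775-34238879, plus strand): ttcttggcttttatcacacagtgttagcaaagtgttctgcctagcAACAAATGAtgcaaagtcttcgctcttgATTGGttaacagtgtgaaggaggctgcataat
Ifi30 (chr8:70766689-70766793, minus strand): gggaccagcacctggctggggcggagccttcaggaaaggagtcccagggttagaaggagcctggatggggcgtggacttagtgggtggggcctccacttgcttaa

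All 5 promoters of chains held ATTGG on the gene's own strand. It began 48 bases before the start of H2-Aa, 57 before H2-Ob, 59 before H2-Eb1, 61 before H2-DMb1 and 90 before H2-DMb2. CCAAT on either strand was present in 37.4% of the 32851 windows of the table, so its presence alone is common. AACNNATGA was present in 2.85% of windows and in 4 of these 6, where it began 28 bases (H2-Ob), 30 bases (H2-Eb1) and 31 bases (H2-DMb1 and H2-DMb2) ahead of ATTGG. H2-Aa did not hold it but had TGACG, the core of sites for CREB factors, 26 bases ahead of ATTGG. This core was in 20.8% of windows and in the outer part of the Ifi30 window as well. Of 2 patterns bound by interferon regulatory factors, GAAANNGAA (8.56% of windows) and GGAANNGAA (8.24%, shared with ETS factors) were in 0 of the 6 windows on either strand, which says only that these letters are not in these windows.

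Median raw signals on replicate 1 were 1755 for IRF8 KO and 1652 for wt, and those on replicate 2 were 2584.5 for IRF8 KO and 2448 for wt, with a highest signal of 65072. A raw signal is a spot's mean brightness minus its median background. The deposited log2 ratios, turned here to IRF8 KO over wt, had a median over all genes of 0.03 on replicate 1 and -0.42 on replicate 2 (-0.21 for the mean of both arrays), so ratios below are also given less these medians. Genes were tested with limma against 0, adjusted by the Benjamini-Hochberg method over 5192 genes with a threshold of 0.05. The moderated test gave all genes 1 common SD, which put the threshold at a mean log2 ratio of 1.18 in size, a 2.26-fold difference.

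Of the classical chains, H2-Ab1 fell 3.16-fold in IRF8 KO cells, H2-Eb1 stood lower on both arrays without passing the test, and H2-Aa could not be read because its spot was at the ceiling of the scanner. In bulk RNA, fewer cells of a type and less RNA per cell cannot be told apart. H2-Ab1, the beta chain of I-A, had 2 probes. The brighter probe (chr17:34406063-34406133 on mouse build 37, as the table gives it) had raw signals of 15282 and 29410 in IRF8 KO cells on replicates 1 and 2, against 38528 and 64517 in wt cells. The dimmer probe (chr17:34401717-34401787) had 1167 and 3147 in IRF8 KO cells, against 3467 and 10714 in wt cells. IRF8 KO was the lower of the pair on both arrays with both probes.

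The dimmer H2-Ab1 probe gave log2 ratios of -1.60 and -2.16 on replicates 1 and 2, and the brighter one -1.36 and -1.53. The wt signal of the brighter probe on replicate 2 was above 60000, near the ceiling of the scanner, and the dimmer probe had no such signal. The mean of both probes was -1.66 ± 0.26 (SD, n = 2 arrays; limma adjusted p = 0.00131), the 56th lowest of 5192 genes. Without probes near the ceiling it was -1.88 (adjusted p = 0.000129). With each array centred on its median it was -1.46 (adjusted p = 0.0323), and with an intensity trend in the variance the call ended (adjusted p = 0.0526).

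H2-Eb1, the beta chain of I-E (probe at chr17:34452851-34452921), had raw signals of 28335 and 46143 in IRF8 KO cells on replicates 1 and 2, against 56461 and 61711 in wt cells. The wt signal on replicate 2 was near the ceiling, and the IRF8 KO signal was 50.2% of wt on replicate 1 and 74.8% on replicate 2. The mean log2 ratio was -0.92 ± 0.15 (SD, n = 2 arrays; limma adjusted p = 0.191), and less the array medians the ratios were -1.05 and -0.39.

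H2-Aa, the alpha chain of I-A (probe at chr17:34419741-34419811), had raw signals of 61544 and 61775 in IRF8 KO cells on replicates 1 and 2, against 64616 and 64590 in wt cells. All 4 signals were near the ceiling, so no fold is given and the probe says nothing about whether this chain moved with its partner H2-Ab1. The raw log2 ratios were -0.07 and -0.06, and the deposited ratios of -0.10 and -0.46 differ from them only by the constant of each array's normalization (limma adjusted p = 0.84).

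**Figure D1:**
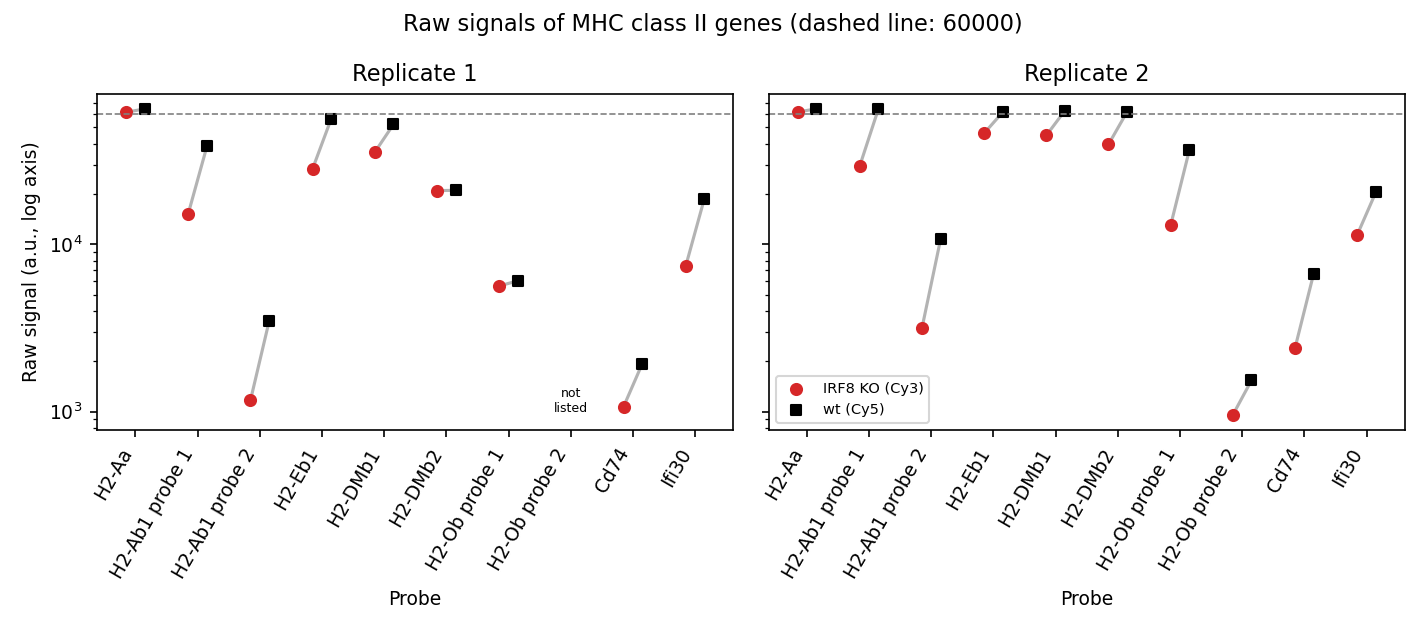
Raw background-subtracted signals (arbitrary units, log axis) of the 10 probes on each array, with IRF8 KO (Cy3, circles) left of wt (Cy5, squares) and a dashed line at 60000. H2-Aa lies above the line in all 4 channels, and the wt signals of H2-Ab1 probe 1, H2-Eb1, H2-DMb1 and H2-DMb2 lie above it on replicate 2.

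None of the 3 measured chains of the loading molecules H2-DM and H2-DO passed the test, and 2 of them differed in size between the arrays. H2-DMb1 (probe at chr17:34296936-34297006) had raw signals of 35583 and 44756 in IRF8 KO cells on replicates 1 and 2, against 52157 and 63065 in wt cells. The wt signal on replicate 2 was near the ceiling, so the difference on that array may be understated. The log2 ratios of H2-DMb1 were -0.58 and -0.89, with a mean of -0.73 ± 0.22 (SD, n = 2 arrays; limma adjusted p = 0.363). Less the array medians they were -0.60 and -0.46.

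H2-DMb2 (probe at chr17:34285702-34285772) had raw signals of 20941 and 39545 in IRF8 KO cells on replicates 1 and 2, against 21037 and 62023 in wt cells. The signals of the genotypes were within 1% of each other on replicate 1, where IRF8 KO was 99.5% of wt, and apart on replicate 2, where it was 63.8%. The wt signal on replicate 2 was near the ceiling here too. The mean log2 ratio was -0.54 ± 0.71 (SD, n = 2 arrays; limma adjusted p = 0.581), and the ratios less the array medians were -0.06 and -0.62. The annotation ties the H2-DMb1 probe to 2 gene IDs and the H2-DMb2 probe to 3, so each of these closely related chains may contribute to the signal of the other.

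H2-Ob, the beta chain of H2-DO, showed the widest gap between the arrays of the 8 genes. Its main probe (chr17:34381190-34381260) had raw signals of 5632 and 12983 in IRF8 KO cells on replicates 1 and 2, against 6054 and 36474 in wt cells. IRF8 KO was 93.0% of wt on replicate 1 and 35.6% on replicate 2, and no signal was near the ceiling. The mean log2 ratio of -1.01 ± 1.24 (SD, n = 2 arrays; limma adjusted p = 0.127) came from -0.13 and -1.88, so that the value rests on replicate 2 (-0.16 and -1.46 less the array medians). A second probe under the same name (chr17:34391576-34391646) lies outside the transcript span given for H2-Ob (chr17:34375849-34382853). It was listed on replicate 2 only, with 954 in IRF8 KO cells and 1536 in wt cells, a log2 ratio of -1.08.

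**Figure D2:**
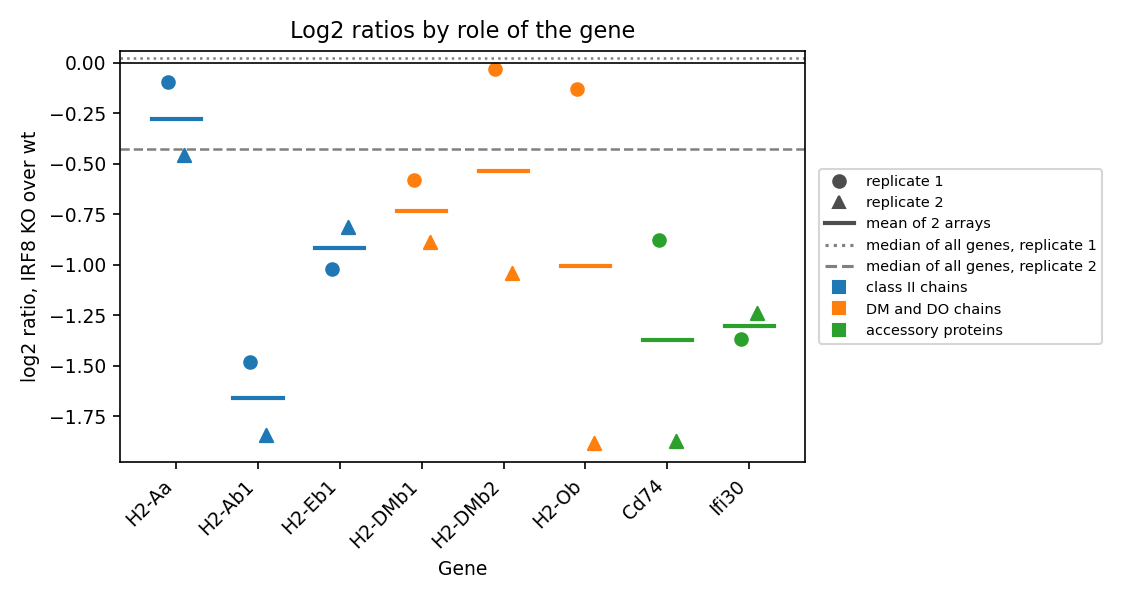
Log2 ratio of IRF8 KO over wt for each gene, grouped by role, with a circle for replicate 1, a triangle for replicate 2 and a bar for their mean. Dotted and dashed lines give the median of all genes on replicates 1 and 2. H2-Ob, H2-DMb2 and Cd74 stand apart between the arrays, whereas Ifi30 and H2-Eb1 lie close together.

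Both accessory proteins fell in IRF8 KO cells. Ifi30, the thiol reductase (probe at chr8:73287635-73287705), had raw signals of 7408 and 11379 in IRF8 KO cells on replicates 1 and 2, against 18761 and 20482 in wt cells. IRF8 KO was the lower on each array, and no signal was near the ceiling. It fell 2.47-fold, with a mean log2 ratio of -1.30 ± 0.09 (SD, n = 2 arrays; limma adjusted p = 0.0229). Less the array medians the ratios lay further apart, at -1.39 and -0.82, and with centred arrays the mean was -1.10 (adjusted p = 0.0848).

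Cd74, the invariant chain (probe at chr18:60971927-60971997), had raw signals of 1068 and 2395 in IRF8 KO cells on replicates 1 and 2, against 1927 and 6673 in wt cells. IRF8 KO was 55.4% of wt on replicate 1 and 35.9% on replicate 2. It fell 2.59-fold, with a mean log2 ratio of -1.37 ± 0.70 (SD, n = 2 arrays; limma adjusted p = 0.0138), and the call ended with centred arrays (-1.17, adjusted p = 0.0716). Its ratios less the array medians were -0.90 and -1.45.

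Of the 8 genes, 3 (H2-Ab1, Cd74 and Ifi30) passed limma as lower, against 3.41% of all genes tested, and 0 passed as higher, against 2.81%. With arrays centred on the median of the 5192 genes, 1 of the 8 (H2-Ab1) passed as lower, against 0.809% of all genes. With arrays centred on all their listed probes, the same 1 gene passed, against 1.52% of all genes. At least 2-fold lower on both arrays were 2 of the 8, H2-Ab1 and Ifi30, against 2.75% of all genes. Leaving out H2-Aa, whose direction cannot be read, the ratio was below 0 on both arrays for 7 of 7, against 43.7% of all genes. It was below the array's own median on both arrays for 7 of 7, against 31.1% of all genes. With 2 arrays, an exact two-sided sign-flip test of a single gene cannot go below p = 0.5.

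The median log2 ratio of the 8 genes was -0.96, against -0.21 for all genes. Set against all genes, the 8 differed by -0.75 (replicate 1) and -0.72 (replicate 2) in the median, so the shift was of like size on both. By role, the accessory proteins had a median of -1.34, the classical chains -0.92 and the DM and DO chains -0.73. Against the median of all genes on each array, the accessory proteins lay at -1.15 and -1.13 on replicates 1 and 2, the classical chains at -1.05 and -0.39, and the DM and DO chains at -0.16 and -0.62. The order of the roles is a description of 2 or 3 genes each, was not tested, and includes the unreadable H2-Aa among the classical chains. On replicate 2 the wt signals of H2-Eb1, H2-DMb1, H2-DMb2 and the brighter H2-Ab1 probe were also near the ceiling. No signal of the accessory proteins was. Without H2-Aa the median of the remaining 7 genes was -1.01.

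The rest of the class II pathway was taken from a list of 21 genes, of which 11 were listed on an array and 5 on both. Of these 5, 3 fell (Ctss, Lgmn and Rfx5), against 3.41% of all genes, and 0 rose, against 2.81%. Ctss, which frees the groove by cutting the invariant chain, had raw signals of 2277 and 6385 in IRF8 KO cells on replicates 1 and 2, against 16897 and 18784 in wt cells. It fell 5.40-fold (log2 -2.43 ± 0.69, SD, n = 2 arrays; limma adjusted p = 2.75e-07), a larger difference than that of any of the 7 readable class II genes. Lgmn, an endosomal protease that makes early cuts in the invariant chain and in antigens, had 866 and 2200 in IRF8 KO cells, against 3893 and 6694 in wt cells. It fell 4.27-fold (log2 -2.10 ± 0.14; adjusted p = 1.5e-05).

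Rfx5, a subunit of the complex that binds the X box, fell 2.43-fold (log2 -1.28 ± 0.31, SD, n = 2 arrays; limma adjusted p = 0.0262). Its 2 probes gave -1.29 and -1.27 as means over the arrays and lay close together. Ciita, the coactivator, had raw signals of 1029 and 1760 in IRF8 KO cells on replicates 1 and 2, against 1683 and 2833 in wt cells. Its log2 ratios of -0.74 and -1.08 were both below 0, and their mean of -0.91 ± 0.24 did not pass (adjusted p = 0.198). Marchf1, a ubiquitin ligase that removes class II from the cell surface, gave 0.07 and -1.41, the same split between arrays as H2-Ob (-0.67 ± 1.04; adjusted p = 0.438).

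Another 6 genes of the pathway were listed on 1 array only and have no test. Of the remaining promoter-binding factors, the RFX subunit Rfxap stood at -0.18 on replicate 1. On replicate 2 the NF-Y subunits Nfyb and Nfyc stood at 0.07 and -0.22, and Creb1, which can bind the X box, at 0.32. All 4 were close to or above their array's median. The costimulatory molecules Cd86 and Cd40 stood at -0.77 and -1.10 on replicate 2, or -0.34 and -0.68 less that array's median. After centring, Ctss and Lgmn passed (adjusted p = 0.027 and 0.0224) and Rfx5 did not (adjusted p = 0.0722).

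A list of class I genes served as the nearest comparison. It holds chains that show peptides from the cell's own proteins and proteins that prepare or load these peptides. Its H2 genes share the genomic region with class II, whereas others, such as B2m and Psme1, lie on other chromosomes. Of the 24 genes on the list, 14 were measured on both arrays. Of these 14, 0 passed in either direction, which is near the shares of all genes (3.41% lower and 2.81% higher). The median log2 ratio of the 14 was -0.49, against -0.96 for the 8 class II genes, and the difference between the lists was not tested. Less the medians of all genes, the class I median was -0.18 on replicate 1 and -0.35 on replicate 2. The classical class II chains had -0.39 on replicate 2, but the 2 values cannot be compared. The -0.39 is that of H2-Eb1, whose wt signal was near the ceiling there, and H2-Aa was unreadable. Of the 14, 12 were below 0 on both arrays, against 43.7% of all genes. The number below the array's own median on both was 10, against 31.1% of all genes. B2m, 1 of the 14, had all 4 signals near the ceiling. The genes of this list with the largest ratios were H2-Q6 (-0.78), the proteasome activator Psme1 (-0.75), H2-M3 (-0.71) and H2-Q7 (-0.65). The probes of H2-Q6 and H2-Q7 matched several genes. H2-K1, a classical class I chain (-0.29), had raw signals of 53586 and 56035 in IRF8 KO cells on replicates 1 and 2, against 56127 and 59552 in wt cells, just under the limit of 60000.

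The 6 H2 genes described here have their probes within 167 kb of chromosome 17, from 34285702 to 34452921 on build 37. Within this stretch, 1 other gene was measured on both arrays, the immunoproteasome subunit Psmb8 (-0.64). Including 500 kb on either side, 19 other genes were measured on both arrays. Of these 19, 0 passed in either direction, which is near the shares of all genes (3.41% lower and 2.81% higher). The mean log2 ratios of the 19 ran from -0.64 to 0.63 with a median of -0.25, close to the -0.21 of all genes. H2-Ab1 lay below all 19, and so did H2-Ob, H2-Eb1 and H2-DMb1, whereas H2-DMb2 lay within their range. H2-Aa, at the ceiling, cannot be placed.

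**Figure D3:**
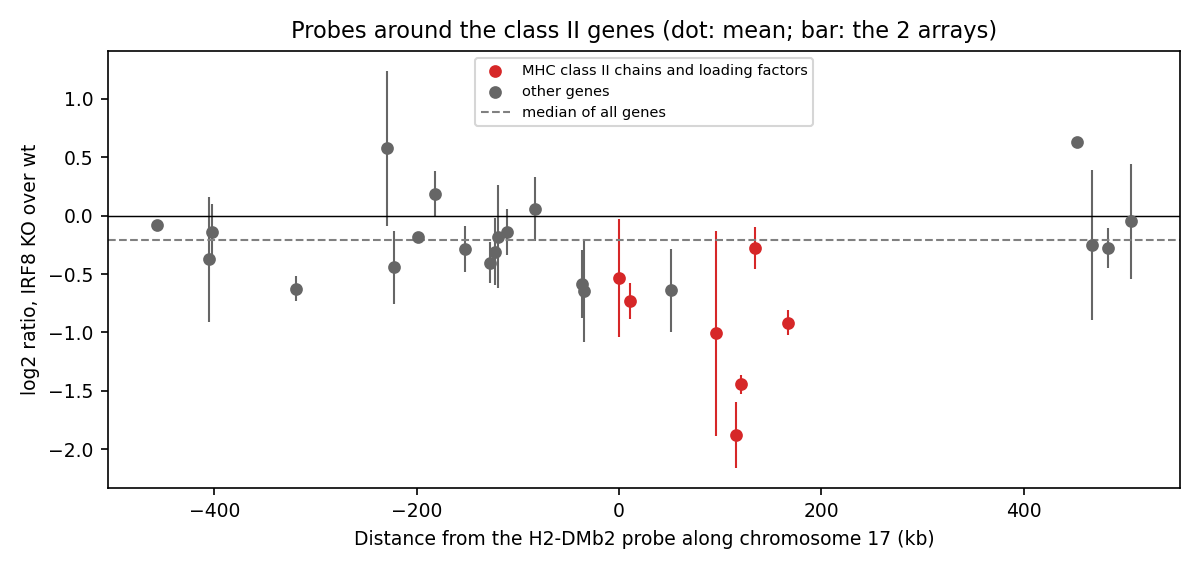
Mean log2 ratio of IRF8 KO over wt (dots) for probes on both arrays around the class II genes, with a bar spanning the 2 arrays, against distance in kb from the H2-DMb2 probe. The dashed line marks the median of all genes, -0.21. The class II genes (red) include the lowest means of the stretch. The means of the other genes (grey) stay between -0.65 and 0.63, and some of their bars reach beyond.

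Some markers of the cells that make class II fell as well, by amounts that differed between the arrays. Of 18 dendritic cell markers, 5 were measured on both arrays. Of these, 4 fell, against 3.41% of all genes: Flt3 (-1.51), Bst2 (-1.50), Ly6d (-1.48) and Cd83 (-1.30). With centred arrays 0 of them passed, against 0.809% of all genes as lower. Ly6d fell more on replicate 2 (-0.80 and -2.16 on replicates 1 and 2), as the B cell markers below did. Flt3 (-2.16 and -0.87) and Bst2 (-1.97 and -1.02) fell more on replicate 1, and Cd83 (-1.15 and -1.45) differed less. Which cells the Ly6d signal came from was not tested. The list's summed raw signal in IRF8 KO cells was 43.0% of wt on replicate 1 and 38.2% on replicate 2. Without Ly6d, which held most of the sum on replicate 2, it was 34.9% of wt on replicate 1 and 68.1% on replicate 2. Batf3, a transcription factor that one kind of dendritic cell needs, was the fifth gene, with -0.54 on replicate 1 and 0.31 on replicate 2 (limma adjusted p = 0.937). Listed on 1 array only, Irf4 stood at 0.66 on replicate 1 and Cd209a at 1.21 on replicate 2, both higher in IRF8 KO cells. The defining markers Zbtb46, Xcr1 and Clec9a had no listed probe.

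Of 22 macrophage and monocyte markers, 11 were measured on both arrays, of which 7 fell and 1 rose (2 and 1 with centred arrays). Over all genes, 3.41% fell and 2.81% rose, or 42 and 150 of the 5192 with centred arrays. Csf1r, the receptor for the macrophage growth factor M-CSF (-2.67), and Hmox1, a heme-degrading enzyme (-2.66), were the lowest of them. Spic (-2.25), Vcam1 (-2.14) and Mpeg1 (-1.31) also fell, and Ly6c1 rose (2.00). Marco passed as lower by its mean (-1.37), but stood at -2.76 on replicate 1 and 0.03 on replicate 2. With centred arrays its call ended (limma adjusted p = 0.43). The list's median was -2.76 on replicate 1 and -0.71 on replicate 2, and its summed signal in IRF8 KO cells was 41.1% of wt on replicate 1 and 96.3% on replicate 2. Without Lgals3, whose IRF8 KO signals were near the ceiling on both arrays, it was 21.4% of wt on replicate 1 and 69.4% on replicate 2. Macrophage markers stood lowest on the array where H2-Ob and H2-DMb2 hardly differed.

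B cell markers had the opposite split. Of 18, 12 were measured on both arrays and 0 passed, against 3.41% of all genes as lower and 2.81% as higher. With loess within arrays 2 passed as lower, as did 277 of the 5192 genes. The median of the 12 markers was -0.15 on replicate 1 and -1.45 on replicate 2. Their summed signal in IRF8 KO cells was 87.9% of wt on replicate 1 and 56.7% on replicate 2. The largest ratios were those of Vpreb3 (-0.66 and -1.53 on replicates 1 and 2), Bank1 (-0.60 and -1.56) and Fcer2a (-0.18 and -1.93). Beside them, H2-Ob stood at -0.13 and -1.88, H2-DMb2 at -0.03 and -1.04, and H2-DMb1 at -0.58 and -0.89. A lower value on replicate 2 was not particular to B cell markers. The class I list had medians of -0.15 and -0.78 on replicates 1 and 2. Less the medians of all genes, the B cell median was -0.17 and -1.02 on replicates 1 and 2, and the class I median -0.18 and -0.35. On that scale H2-Ob stood at -0.16 and -1.46, and H2-DMb2 at -0.06 and -0.62. H2-DMb1 stood at -0.60 and -0.46. Its wt signal on replicate 2 was near the ceiling, so whether it shared the split cannot be read. Of the 12 B cell markers, 10 were below 0 on both arrays, against 43.7% of all genes. The part of B cells, dendritic cells or macrophages in the class II values was not tested.

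**Figure D4:**
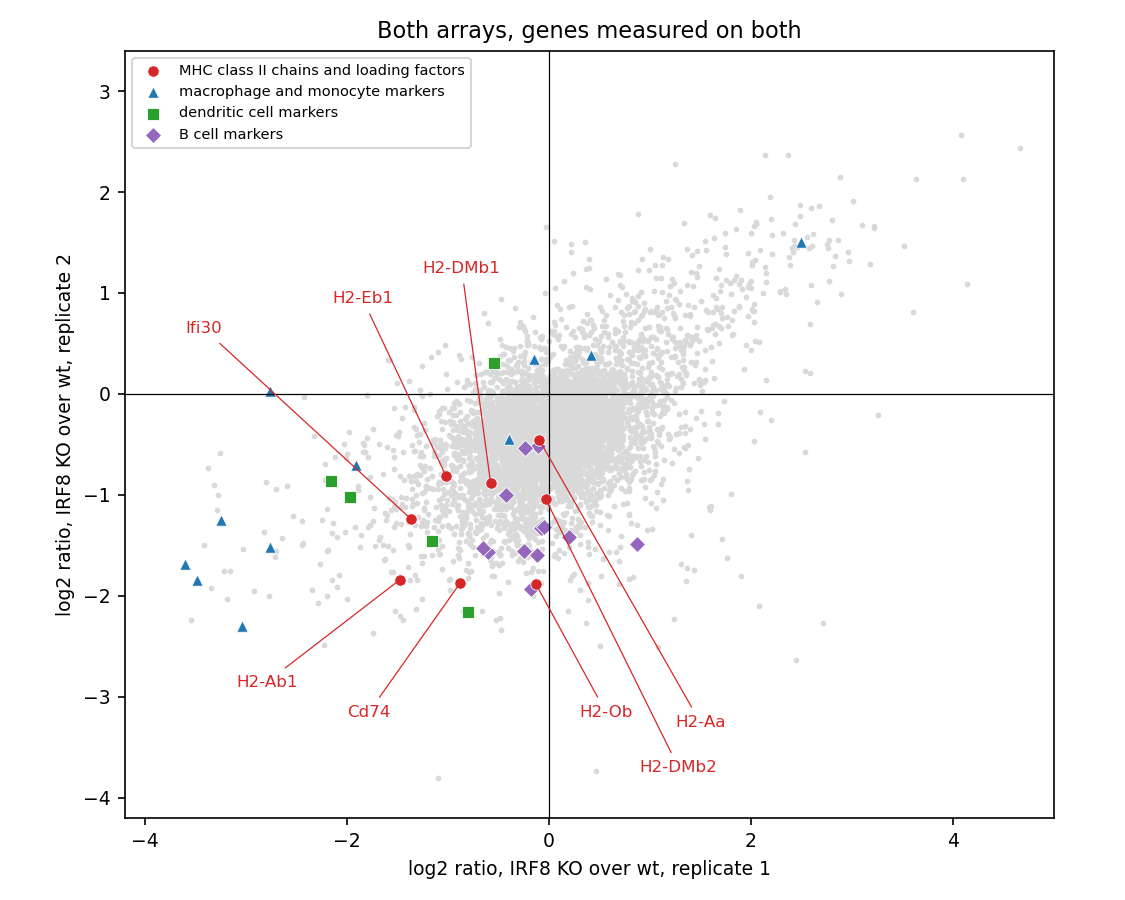
Log2 ratio of IRF8 KO over wt on replicate 1 (horizontal) against replicate 2 (vertical) for 5192 genes (grey), with the 8 class II genes (red circles), macrophage (triangles), dendritic cell (squares) and B cell (diamonds) markers. H2-Ob and H2-DMb2 lie among the B cell markers that are near 0 on replicate 1, whereas Ifi30, H2-Ab1 and Cd74 lie lower on both arrays.

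The other marker lists bear on what the cells were. Itgam, which encodes CD11b itself, had raw signals of 7883 and 15036 in IRF8 KO cells on replicates 1 and 2, against 1862 and 3527 in wt cells. It rose 3.68-fold (log2 1.88 ± 0.25, SD, n = 2 arrays; limma adjusted p = 0.000156). Of 9 genes typical of CD11b-positive cells on both arrays, 2 rose (Itgam and Lyz1) and 0 fell. Of 9 neutrophil genes 3 rose (Camp, Mpo and Ngp, or 2 with centred arrays) and 0 fell. Over all genes, 2.81% rose and 3.41% fell, and 150 of the 5192 rose with centred arrays. Of T and NK cell markers, 2 of 16 were measured on both arrays, and Cd2 fell (-1.23) with -0.50 on replicate 1 and -1.97 on replicate 2, a call that ended with centred arrays (limma adjusted p = 0.142). No probe carried the name Irf8, so its own transcript could not be used to check which RNA was which.

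Among the genes whose ratios on the 2 arrays lay nearest to the median pair of the 8 genes (-0.73 and -1.14), by Euclidean distance over 2 arrays, were Cdk4, a kinase of the cell cycle (-0.73 and -1.10), and Stam2, an endosomal sorting protein (-0.77 and -1.16). Next came Ap1s3, a subunit of a clathrin adaptor (-0.73 and -1.10), and Mecr, an enzyme of mitochondrial fatty acid synthesis (-0.70 and -1.18). None of these 4 passed the test (limma adjusted p from 0.156 to 0.193), and with 2 arrays many genes share such a pair of values.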

How the data were processed

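The deposited log2 values are Cy5 over Cy3 ratios that mAdb, an array database, normalized by median, per the file headers. Raw intensity, per the file headers, is a spot's mean minus its median background. Spots needed a signal of at least 100 and at least 1 times background in both channels, per the file headers, so a transcript nearly absent in 1 genotype may be missing. Deposited ratios equalled raw log2 ratios plus a constant per array. The headings of a second deposited table give the 2 replicates the other way round, and array names were followed.

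Here signs were turned to IRF8 KO over wt and probes of a gene averaged. Ratios were tested against 0 with limma 3.58.1 in R 4.3.3 (lmFit, eBayes; prior degrees of freedom infinite). Signals of 60000 or more counted as near the ceiling. The number of arrays limits the precision. Gene names follow Entrez IDs matched to RefSeq. Named genes are the 8, the listed pathway genes, the class I genes with the 4 largest ratios, the called genes or up to 3 largest ratios of each marker list, and the 5 nearest genes, of which 1 is not reported here, as is 1 marker gene. Batf3, Irf4, Cd209a and Lgals3 were named after their values were seen. The 8 genes and all lists were chosen with earlier results of these data known. Alternatives were centring, loess, filters on dim, bright and ambiguous probes, the brightest probe, other variance models and single arrays.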

Additional observations from a re-analysis of the deposited data

How the results depend on the processing

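Over all genes, 177 were lower and 146 higher in IRF8 KO cells. Loess gave 277 lower and 381 higher, centring on the 5192 genes 42 lower and 150 higher, and centring on all listed probes, an alternative chosen after seeing the data, 79 lower and 160 higher. An ordinary t statistic, on each gene's own spread, called 0 genes, 0 of the 8 class II genes and 0 of the 5 pathway genes. It gave 302 genes an unadjusted p under 0.05, against 839 with limma. Of the 3 class II calls, 1 (H2-Ab1) remained after either centring and 1 (Cd74) with an intensity trend, and 3 remained under loess and the filters. The median of -0.96 became -1.34 without probes near the ceiling, which leaves 4 genes, and otherwise ran from -1.15 to -0.72. It was -1.14 without replicate 1 and -0.73 without replicate 2, where a single array leaves no test. No log2 ratio of the 8 genes changed sign under any alternative run. Without replicate 2, H2-Ob stood at -0.13 in place of -1.01 and H2-DMb2 at -0.03 in place of -0.54. The test of ratios within arrays is itself paired by array. Centring on the 5192 genes also changed the variance model, with prior degrees of freedom of 5.89 in place of infinite. What ended a call was not tested.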
